A study of Mus musculus with 9 samples.

Results

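The genes described here encode enzymes that take ubiquitin off histone H2A, with the ASXL cofactors of 1 of them. The members are Bap1, Asxl1, Asxl2, Usp16, Mysm1, Usp21, Usp3 and Usp22, chosen by name, and every probe set that the platform annotation assigned to 1 of these symbols alone was taken. That gave 23 of the 45037 probe sets other than controls, namely 2 for Bap1, 3 for Asxl1, 5 for Asxl2, 2 for Usp16, 3 for Mysm1, 1 for Usp21, 5 for Usp3 and 2 for Usp22. The members thus make up 8 of 18193 named genes.

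RNA came from L8057 cells, a mouse megakaryocytic leukaemia line, so that all groups share 1 cell line. CBFb_KD cells carried a lentiviral short hairpin against CBFb, the non-DNA-binding partner of RUNX factors, Ring1b_KD cells a hairpin against Ring1b (gene Rnf2), and Control cells the empty vector, with 3 arrays a group. All 3 groups were infected, were given puromycin together with TPA, a phorbol ester, at 50 nM from 48 h after infection, and were harvested when TPA had been present for 72 h (3 days). The submitters call these biological triplicates, but the labels do not say whether cultures were infected separately, and the number or sequence of the hairpins is not given in the sources used here, so the p-values below rest on array-to-array spread that may be technical.

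Ring1b is the catalytic subunit of Polycomb repressive complex 1 and attaches a single ubiquitin to a lysine in the C-terminal tail of histone H2A, a mark associated with silenced genes. The deubiquitinases remove it. BAP1 does so as the catalytic subunit of the PR-DUB complex and needs an ASXL protein to be active, USP16 acts ahead of mitosis, MYSM1 is a metalloprotease that mice need for normal blood formation, USP21 acts at gene activation, USP3 acts on H2A and H2B and is linked to replication and DNA repair, and USP22 is the deubiquitinase of the SAGA coactivator complex. ASXL1 is often mutated in human myeloid disease.

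For the 2 genes with probe sets called against Control, Asxl2 and Usp3, the bases upstream of the annotated gene are shown from the RefSeq promoter table (GRCm38.p6). Each is written 5′ to 3′ on the gene's strand, and capitals mark GGAA, the core of ETS factor sites, on either strand (TTCC on the other). The Asxl2 stretch lies at chr12:3426607-3426856 on the plus strand and holds 4 such cores and 31 CG dinucleotides in 250 bases. The Usp3 stretch lies at chr9:66593149-66593365 on the minus strand and holds 2 cores and 14 CG dinucleotides in 217 bases.
Asxl2: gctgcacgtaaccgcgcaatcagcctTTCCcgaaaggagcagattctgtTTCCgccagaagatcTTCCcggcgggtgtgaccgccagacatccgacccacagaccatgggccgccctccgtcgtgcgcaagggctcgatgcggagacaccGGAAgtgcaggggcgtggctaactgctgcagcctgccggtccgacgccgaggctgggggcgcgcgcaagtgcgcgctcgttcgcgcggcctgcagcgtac
Usp3: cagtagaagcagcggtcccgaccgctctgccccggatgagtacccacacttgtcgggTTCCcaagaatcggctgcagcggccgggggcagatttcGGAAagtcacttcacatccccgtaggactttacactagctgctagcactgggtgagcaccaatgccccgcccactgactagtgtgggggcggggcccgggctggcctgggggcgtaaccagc

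Promoter windows of 250 bases before to 50 after the start were matched by symbol for 7 members, and Usp22 had no entry. The RUNX motif TGTGGT, searched on both strands, was present in the windows of Asxl1 (140 bases before the start) and Asxl2 (33 bases after it, outside the stretch shown). It is found in 16.8% of the 32851 windows of the table. The looser form TGNGGT, which includes TGTGGT, also occurred in those of Bap1, Usp16 and Mysm1, against 45.8% of all windows, and GGAA was in all 7, against 96% of all windows. In CG dinucleotides the 7 windows ranged from 13 in Asxl1 to 50 in Bap1, where the median window of the table had 7. Usp21 and Usp3 held neither RUNX form. No binding was measured here, so these matches describe letters only.

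The targeted transcripts were low in the arrays labelled for them. Cbfb averaged 9.19 ± 0.11 in CBFb_KD and 12.36 ± 0.12 in Control (log2 signal, SD, n = 3 each), and the brightest probe set of Rnf2 averaged 8.98 ± 0.08 in Ring1b_KD and 10.65 ± 0.08 in Control. Of the 5 Rnf2 probe sets 3 fell in Ring1b_KD, and the other 2 were not called there. Of 15 listed megakaryocyte markers 13 were measured, and Gp6, Vwf and Nfe2 were dimmer than the median probe set (6.579), so the labelled cell type rests on the other 10. Dimmer than it were also 3 of 6 erythroid, 2 of 7 mast cell and 4 of 7 neutrophil markers. So were 4 of 6 monocyte and macrophage, 2 of 6 T and B cell and 3 of 4 fibroblast markers. Brightness above the median thus does not set the megakaryocyte list apart from the mast cell or T and B cell lists. Array medians ran from 6.51 to 6.65 as deposited and were highest in Ring1b_KD, so values below were quantile normalized. The 3′ control probe set of pyruvate carboxylase minus its 5′ one gave 0.411, 0.238 and -0.161 in Ring1b_KD arrays 1, 2 and 3 (log2), against 0.254 to 0.529 in Control, so Ring1b_KD array 3 stood apart in this measure of RNA quality. The same difference for the transferrin receptor was 1.2 to 1.46 in CBFb_KD, 1.14 to 1.36 in Ring1b_KD and 1.43 to 1.61 in Control, with all Ring1b_KD arrays below all Control arrays, while for beta-actin and Gapdh the groups overlapped. A group's level in bulk RNA cannot tell fewer cells of a type from less RNA per cell.

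Across the 3 groups, transcripts of Asxl2 and Usp3 moved and those of the catalytic enzyme Bap1 showed no difference that passed the test. A limma F test, adjusted by Benjamini-Hochberg over all probe sets and called under 0.05, called 7 of the 23 member probe sets, from Asxl1, Asxl2 and Usp3, where 17.7% of all probe sets were called. In Ring1b_KD, 5 member probe sets were higher and 1 lower than in Control, where 3.77% of all probe sets were called higher and 4.71% lower. This split depended on the scaling: the members called in Ring1b_KD were 4 higher and 2 lower as deposited and 3 higher and 2 lower after median centring, and all probe sets 1668 higher and 2755 lower as deposited and 749 higher and 4204 lower after median centring, against 1698 higher and 2123 lower with quantile normalization. In the other knockdown, CBFb_KD, 1 was higher and 0 lower, where 4.9% of all probe sets were called higher and 4.76% lower. Both knockdowns are set against the same 3 Control arrays.

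**Figure D1:**
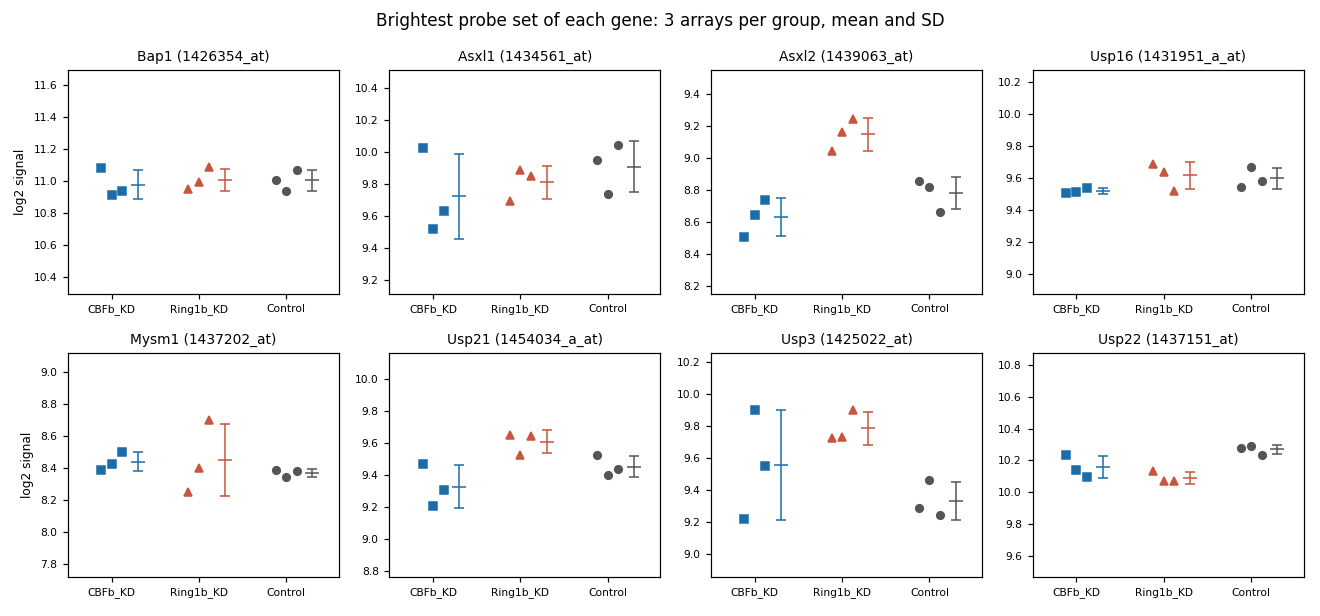
Log2 signal (vertical axis, each panel spanning 1.4 log2 units) of the brightest probe set of each of the 8 genes, with 1 point per array for CBFb_KD (squares), Ring1b_KD (triangles) and Control (circles) and the mean with SD beside them. The Ring1b_KD arrays of Asxl2 (9.04 to 9.24) lie above those of both other groups, while the groups of Bap1 overlap.

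BAP1 is the catalytic subunit of PR-DUB. Its brighter probe set, 1426354_at, read 11.08, 10.91 and 10.94 in CBFb_KD, 10.95, 10.99 and 11.08 in Ring1b_KD, and 11.005, 10.939 and 11.067 in Control. The groups overlapped. The log2 difference from Control was -0.03 in CBFb_KD (95% interval -0.19 to 0.14, limma adjusted p = 0.906) and 0.00 in Ring1b_KD (95% interval -0.16 to 0.17, limma adjusted p = 0.983). Its other probe set, 1452039_a_at, had differences of -0.05 and -0.01, with intervals between -0.23 and 0.18. The annotation derives both Bap1 probe sets from the same sequence record, so they are not independent. Bap1 lies on chromosome 14, from 31251352 to 31259930 (GRCm38.p6).

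Asxl1 and Asxl2 encode the cofactors that switch BAP1 on. Asxl2 (chromosome 12, 3426857 to 3510811) had the largest differences among the members, in Ring1b_KD. Probe set 1453295_at read 7.02, 7.36 and 7.25 in CBFb_KD, 7.95, 7.88 and 8.38 in Ring1b_KD, and 7.38, 7.44 and 7.24 in Control. Every Ring1b_KD array was above every array of the other groups, and array 3 was the highest. It rose 1.64-fold in Ring1b_KD (log2 difference 0.72, SE 0.131, 95% interval 0.43 to 1.00, limma adjusted p = 0.00594). Without Ring1b_KD array 3 the log2 difference was 0.57 (limma adjusted p = 0.0119). In CBFb_KD it was -0.14 (95% interval -0.43 to 0.15, limma adjusted p = 0.654). In the same Ring1b_KD arrays 2 of the 13 measured megakaryocyte markers fell and 0 rose, and 0 of 6 erythroid markers passed limma (1 at an unadjusted p under 0.05), and the part of these in the Asxl2 and Usp3 differences was not tested.

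A pair of further Asxl2 probe sets rose as well. The brightest, 1439063_at, read 9.04, 9.16 and 9.24 in Ring1b_KD, against 8.85, 8.82 and 8.66 in Control, with no overlap (log2 difference 0.37, SE 0.094, limma adjusted p = 0.0319). That call depended on the scaling, with 0.29 (limma adjusted p = 0.0843) on the values as deposited and 0.20 (limma adjusted p = 0.261) after median centring of each array. It was also lost without Ring1b_KD array 2 (limma adjusted p = 0.0852) or 3 (0.0866), or without Control array 1 (0.0556), 2 (0.083) or 3 (0.139). Probe set 1444754_at, among the 4 member probe sets dimmer than the median probe set, read 6.62, 6.49 and 6.93 in Ring1b_KD, against 6.30, 6.23 and 6.17 in Control, again apart (0.45, SE 0.106, limma adjusted p = 0.0232). Its limma adjusted p was 0.0534 without Ring1b_KD array 3, 0.0747 without Control array 2 and 0.097 without Control array 3.

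Against these, Asxl2 probe set 1460597_at went down. It read 7.87, 7.90 and 7.63 in Ring1b_KD, against 8.27, 8.24 and 8.13 in Control, each Ring1b_KD array below each Control array. It fell by 0.41 on the log2 scale (SE 0.091, limma adjusted p = 0.0162), with limma adjusted p = 0.0601 without Control array 1 and 0.0678 without Control array 2. The remaining probe set, 1458366_at, differed by -0.01 (95% interval -0.19 to 0.17, limma adjusted p = 0.96). Asxl2 as a gene thus has no single direction on this array: averaged over its 5 probe sets the difference was 0.22 (limma adjusted p = 0.0586). The transferrin receptor control also differed between these groups, as given above, and its part was not tested. Where each probe set lies on the Asxl2 transcripts is not known here.

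The opposite course of 2 Asxl2 probe sets can be given array by array, as a description. The log2 signal of 1453295_at minus that of 1460597_at was 0.08, -0.02 and 0.75 in Ring1b_KD, -1.05, -0.78 and -0.82 in CBFb_KD, and -0.88, -0.81 and -0.89 in Control. Ring1b_KD array 3 was the farthest from Control, and arrays 1 and 2 were also apart from all CBFb_KD and Control arrays. The group means were 0.27 ± 0.42 in Ring1b_KD and -0.86 ± 0.04 in Control (SD, n = 3 each), a pair of probe sets chosen after their values were seen.

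**Figure D2:**
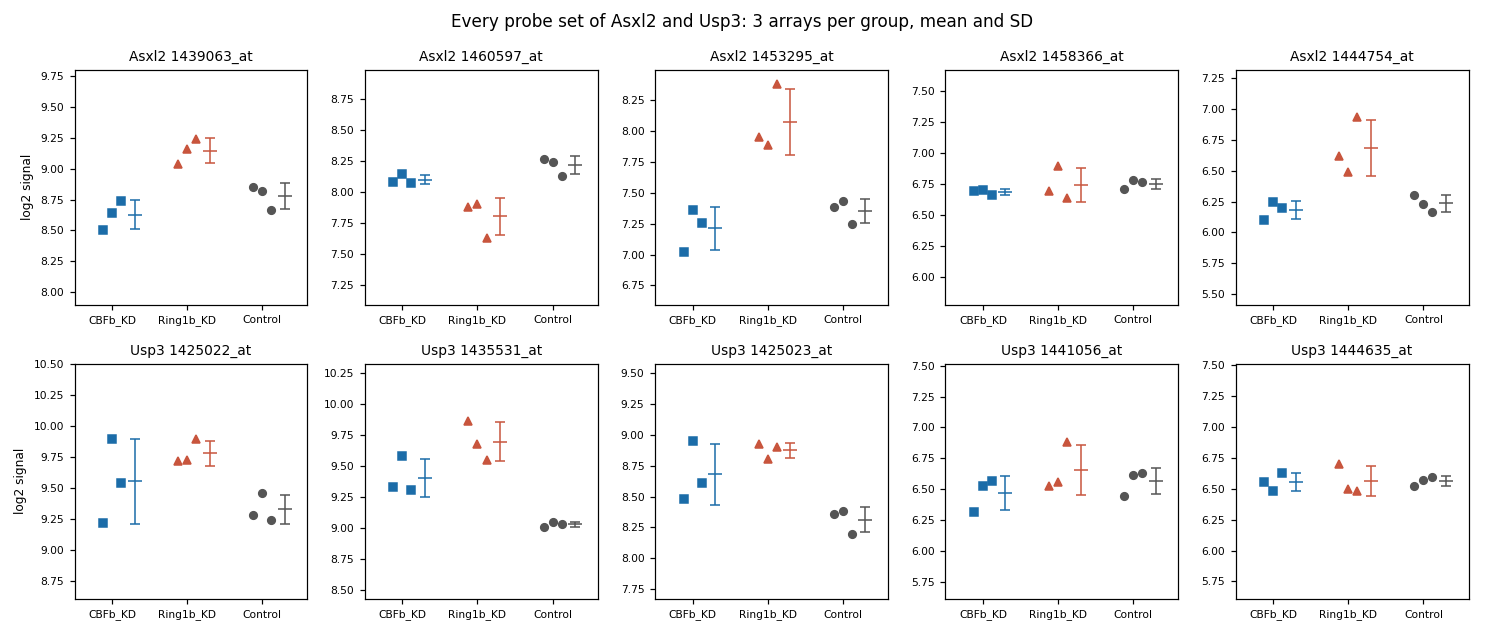
Log2 signal (vertical axis, each panel spanning 1.9 log2 units) of the 5 probe sets of Asxl2 (upper row) and the 5 of Usp3 (lower row), with 1 point per array for CBFb_KD, Ring1b_KD and Control and the mean with SD. For Asxl2, 3 probe sets are higher and 1460597_at is lower in Ring1b_KD, and for Usp3 the 3 bright probe sets on the left are higher in Ring1b_KD than in Control while the 2 dim ones overlap.

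Asxl1 (chromosome 2, 153345830 to 153404007) had no probe set called in either knockdown against Control. Probe set 1435077_at read 8.63, 8.72 and 8.74 in CBFb_KD, 9.05, 8.95 and 9.11 in Ring1b_KD, and 8.97, 8.84 and 8.95 in Control. Its CBFb_KD arrays were below all others, with a log2 difference from Control of -0.23 (95% interval -0.40 to -0.05, limma adjusted p = 0.12). The brightest probe set, 1434561_at, had differences of -0.19 in CBFb_KD and -0.10 in Ring1b_KD (limma adjusted p = 0.507 and 0.71), where CBFb_KD array 1 stood at 10.03 and the others of that group at 9.52 and 9.63. Probe set 1458380_at had the widest spread of the 23, with an SD of 0.43 in CBFb_KD and 0.42 in Ring1b_KD, against 0.04 in Control. It differed from Control by -0.24 in CBFb_KD (95% interval -0.70 to 0.22, limma adjusted p = 0.63) and -0.01 in Ring1b_KD (limma adjusted p = 0.986).

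USP3 removes ubiquitin from H2A and H2B. Usp3 (chromosome 9, 66514639 to 66593148) rose in Ring1b_KD on 2 of its 5 probe sets. Probe set 1435531_at read 9.86, 9.68 and 9.55 in Ring1b_KD, 9.33, 9.58 and 9.30 in CBFb_KD, and 9.005, 9.046 and 9.033 in Control. The arrays of both knockdowns were above all Control arrays. It rose 1.59-fold in Ring1b_KD (log2 difference 0.67, SE 0.101, 95% interval 0.45 to 0.89, limma adjusted p = 0.00207), a call kept in all 16 alternatives run for it, from 0.49 to 0.74.

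In CBFb_KD the same probe set was the 1 member probe set that passed, 1.30-fold higher than Control (log2 difference 0.37, limma adjusted p = 0.0342). That call was lost after median centring (limma adjusted p = 0.0711), without CBFb_KD array 2 (0.149) or 3 (0.0501), and without Control array 1 (0.109), 2 (0.092) or 3 (0.11). The order of its levels was Ring1b_KD, CBFb_KD, Control, and the first pair of neighbours overlapped (log2 difference CBFb_KD minus Ring1b_KD -0.29, limma adjusted p = 0.0768). That difference was -0.18 as deposited (limma adjusted p = 0.31) and -0.10 after median centring (limma adjusted p = 0.67), and it passed without CBFb_KD array 2 (-0.38, limma adjusted p = 0.0378) or Ring1b_KD array 3 (-0.37, limma adjusted p = 0.0481). Markers moved in the same arrays: of 13 measured megakaryocyte markers 6 rose and none fell in CBFb_KD, with a mean log2 signal over the list of 9.53 to 9.62 in CBFb_KD, 8.54 to 8.97 in Ring1b_KD and 8.77 to 9.01 in Control. Of 6 erythroid markers 3 rose in CBFb_KD, with a list mean of 8.29 to 8.48 in CBFb_KD, 7.86 to 8.05 in Ring1b_KD and 7.76 to 7.86 in Control. The part of these shifts in the Usp3 difference was not tested.

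The other bright Usp3 probe sets had the same sign. Probe set 1425023_at read 8.92, 8.81 and 8.90 in Ring1b_KD, 8.48, 8.95 and 8.61 in CBFb_KD, and 8.36, 8.38 and 8.20 in Control, with both knockdowns above Control. It rose 1.48-fold in Ring1b_KD (log2 difference 0.56, SE 0.115, limma adjusted p = 0.0109), with limma adjusted p = 0.0575 without Control array 3 and 0.0572 after median centring, and its difference in CBFb_KD was 0.37 (limma adjusted p = 0.0691). The brightest, 1425022_at, differed by 0.45 in Ring1b_KD (95% interval 0.15 to 0.76, limma adjusted p = 0.0708), with no overlap of the arrays, and by 0.23 in CBFb_KD (limma adjusted p = 0.453), where CBFb_KD array 2 stood at 9.90 and array 1 at 9.22. The annotation derives 1425022_at and 1425023_at from the same sequence record, so they are not independent. The dim probe sets 1441056_at and 1444635_at differed by at most 0.10 in either knockdown.

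**Figure D3:**
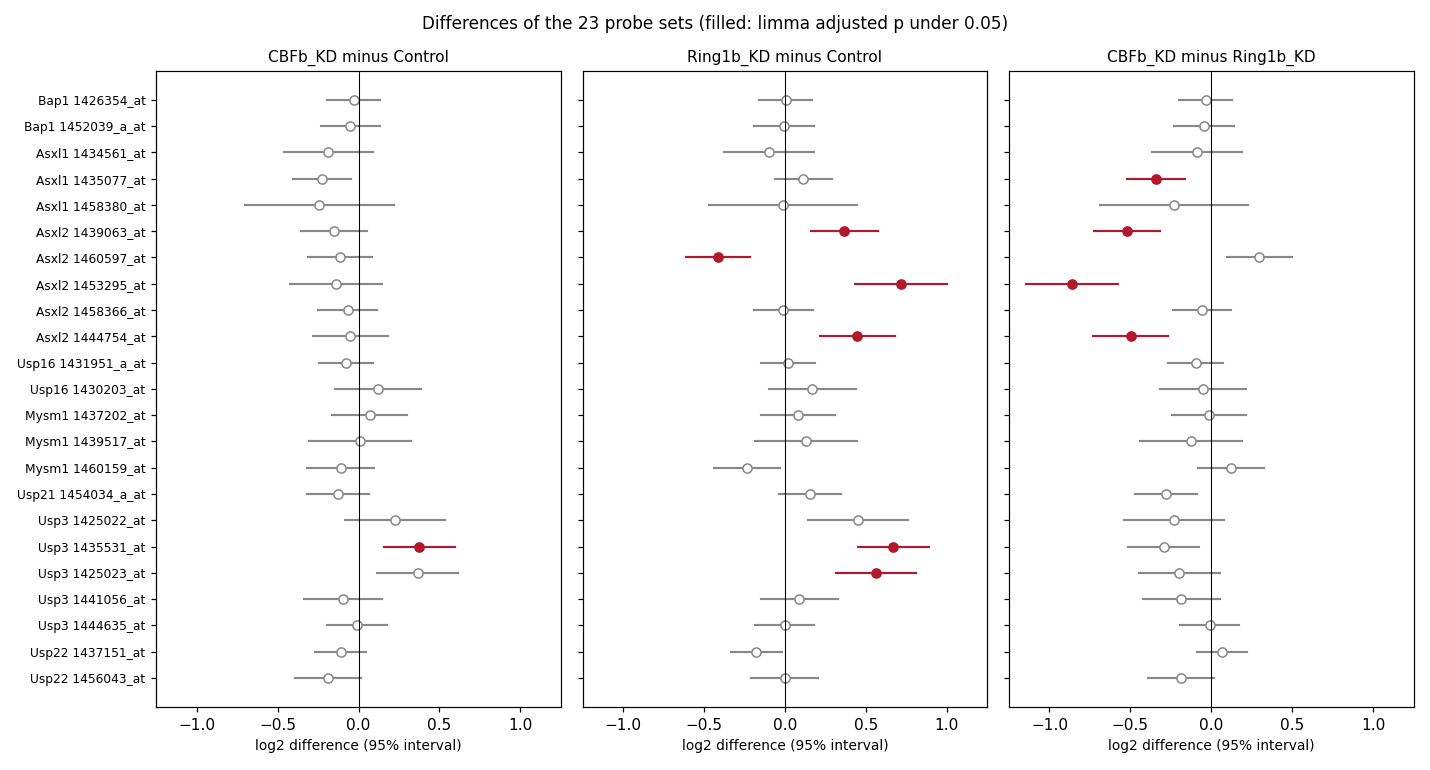
Log2 differences with 95% intervals (horizontal axes) of the 23 member probe sets for CBFb_KD minus Control, Ring1b_KD minus Control and CBFb_KD minus Ring1b_KD, filled where the limma adjusted p was under 0.05. In the middle panel 5 points are filled to the right of 0, from Asxl2 and Usp3, and 1 to the left, Asxl2 1460597_at.

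In the main fit (quantile normalized, all arrays and probe sets, no block), no probe set of Usp16, Mysm1, Usp21 or Usp22 passed in any comparison. Usp16 acts ahead of mitosis, Mysm1 is the metalloprotease and Usp22 the SAGA enzyme. Alternatives in which Usp21 or Usp22 passed are given below. For Usp16, 1431951_a_at differed from Control by -0.08 in CBFb_KD (95% interval -0.25 to 0.09) and 0.02 in Ring1b_KD (95% interval -0.15 to 0.19). Its dimmer probe set 1430203_at differed by 0.12 in CBFb_KD (95% interval -0.15 to 0.38) and 0.17 in Ring1b_KD (95% interval -0.10 to 0.44). For Mysm1, 1437202_at differed by 0.07 (95% interval -0.16 to 0.30) and 0.08 (95% interval -0.15 to 0.31). Mysm1 1439517_at differed by 0.01 in CBFb_KD (95% interval -0.31 to 0.32) and 0.13 in Ring1b_KD (95% interval -0.19 to 0.45). These intervals leave room for changes of about the sizes at their ends and do not show equal levels.

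Usp22 had its lowest arrays in Ring1b_KD on the brighter probe set. Its 1437151_at read 10.14, 10.07 and 10.07 in Ring1b_KD, 10.23, 10.14 and 10.10 in CBFb_KD, and 10.28, 10.29 and 10.23 in Control. The Ring1b_KD arrays were below the Control arrays, by 0.18 (95% interval -0.33 to -0.02, limma adjusted p = 0.161). The CBFb_KD arrays were also below them, the nearest only just, with a difference of -0.11 (95% interval -0.27 to 0.05, limma adjusted p = 0.469). The Ring1b_KD value depended on the scaling: it was -0.28 (limma adjusted p = 0.0355) as deposited and -0.37 (limma adjusted p = 0.0169) with median centring. The other Usp22 probe set, 1456043_at, differed by 0.00 in Ring1b_KD and -0.19 in CBFb_KD (limma adjusted p = 0.993 and 0.299). Usp21, on its 1 probe set, read 9.47, 9.20 and 9.31 in CBFb_KD, 9.65, 9.53 and 9.64 in Ring1b_KD and 9.52, 9.40 and 9.43 in Control, with the Ring1b_KD arrays the highest. Its difference from Control was 0.16 in Ring1b_KD (limma adjusted p = 0.322) and -0.13 in CBFb_KD (limma adjusted p = 0.52), and between the knockdowns it was -0.28 (limma adjusted p = 0.054). That last difference was called in 6 of its 18 alternatives, with the smallest limma adjusted p, 0.0216, without CBFb_KD array 1, and shrank to -0.17 as deposited (limma adjusted p = 0.214) and -0.09 after median centring (limma adjusted p = 0.582). The difference of Usp21 in Ring1b_KD from Control was 0.05 as deposited and -0.04 after median centring. For Mysm1 the dim probe set 1460159_at had its Ring1b_KD arrays below those of Control (-0.23, limma adjusted p = 0.16).

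Counted over the 23 probe sets, 6 passed in Ring1b_KD against Control, or 26.1%, where 8.48% of all probe sets were called. They came from 2 genes, and probe sets of 1 gene are not separate observations. The count was 3 without Control array 2 or 3, and 4 without Control array 1 or Ring1b_KD array 3. Without probe sets dimmer than the median, 6 of 19 member probe sets passed in Ring1b_KD, beside 4281 of all 22519 left. With 1 probe set per gene, 1 of 8 members passed there, beside 2227 of 18193 genes. In CBFb_KD 1 of 23 passed, against 9.65% of all probe sets, and the count was 0 without CBFb_KD array 2 or 3 or any 1 Control array, and 2 without CBFb_KD array 1. The arrays of the groups did not overlap for 10 of 23 in Ring1b_KD against Control (29.4% of all probe sets) for 6 of 23 in CBFb_KD against Control (26.2%), and for 6 of 23 between the knockdowns (29.7%). The median log2 difference over the members was 0.08 in Ring1b_KD, against 0.01 over all probe sets, and -0.08 in CBFb_KD, against -0.01 over all probe sets. These medians hold for the quantile normalized values only. In Ring1b_KD both depended on the scaling, and that over all probe sets was 0.0422 as deposited and -0.0442 after median centring.

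Set directly against each other, the knockdowns differed on 4 of the 23 probe sets, all lower in CBFb_KD than in Ring1b_KD, where 13.4% of all probe sets were called, 7.07% higher and 6.33% lower. As deposited and after median centring, 1 member was higher and 3 lower, and all probe sets were 3552 higher and 2453 lower as deposited and 4600 higher and 1038 lower after centring, against 3186 higher and 2849 lower with quantile normalization. The Asxl2 probe set 1453295_at differed by -0.86 (SE 0.131, limma adjusted p = 0.00106), 1439063_at by -0.52 (limma adjusted p = 0.00318) and 1444754_at by -0.50 (limma adjusted p = 0.00856). These 3 kept their calls in every alternative in which they were tested. The Asxl1 probe set 1435077_at differed by -0.34 (limma adjusted p = 0.016), a call lost as deposited (-0.25, limma adjusted p = 0.0703), with median centring (-0.17, limma adjusted p = 0.276) and without Ring1b_KD array 3 (-0.30, limma adjusted p = 0.0531). Asxl2 1460597_at, lower in Ring1b_KD than in Control, had the opposite sign here and lay at the threshold (0.30, limma adjusted p = 0.0502). It was called in 7 of its 16 alternatives, among them as deposited (0.31, limma adjusted p = 0.0461) and after median centring (0.39, limma adjusted p = 0.0203), with limma adjusted p between 0.0203 and 0.155 over all 16. The megakaryocyte list differed between these groups too, with 6 of 13 markers higher in CBFb_KD than in Ring1b_KD, and its part was not tested.

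**Figure D4:**
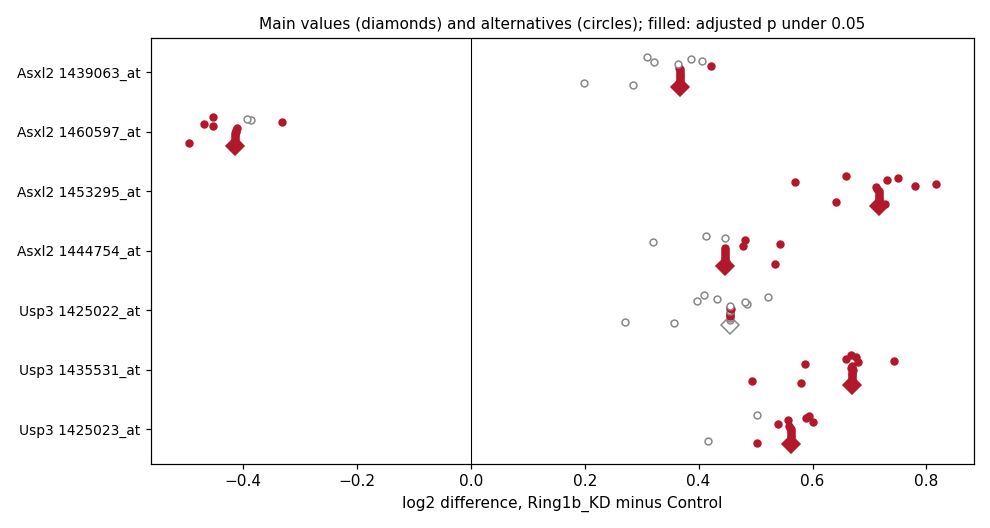
Log2 difference Ring1b_KD minus Control (horizontal axis) of 4 Asxl2 and 3 Usp3 probe sets, with diamonds for the values reported, circles for the alternative settings other than the mean over probe sets, and filled symbols where the limma adjusted p was under 0.05. Signs are kept throughout, Asxl2 1453295_at and Usp3 1435531_at stay filled in all 16 alternatives, and Asxl2 1439063_at reaches down to 0.20 with open symbols.

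Of the members, Asxl2 alone passed the F test on its brightest probe set (limma adjusted p = 0.00546), 1 of 8 where 21.8% of all genes were called. The profiles most like it over the 9 arrays, after each was centred on its mean, were those of Adcy5, an adenylyl cyclase, with a root mean square difference of 0.043 (log2), Nrxn3, a neurexin, with 0.069, and Sesn1, a sestrin, with 0.077. The Asxl2 profile itself spanned 0.74.

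Among other genes of histone ubiquitin turnover, each by its brightest probe set, changes in Ring1b_KD were mostly downward where they passed in the main fit. The targeted Rnf2 is counted among them. Of all genes 10.1% were called there, 4.54% higher and 5.54% lower. The balance of higher and lower calls over all probe sets depended on the scaling in this comparison, as given above. The H2A ubiquitin ligases of PRC1 had 1 higher and 2 lower of 8. Besides Rnf2 itself (-1.67), Bmi1, a ring finger partner of Ring1b, fell by 0.90 (limma adjusted p = 5.71e-05), and Pcgf3, another partner, rose by 0.44. Of 7 H2A ligases outside PRC1, Rnf168, the ligase of the DNA damage response, fell by 0.77 (limma adjusted p = 0.000261). PR-DUB partners had 2 of 8 lower, Foxk1, a forkhead factor, at -0.41 and Kdm1b, a histone demethylase, at -0.61. The Kdm1b arrays of Ring1b_KD had an SD of 0.38, against 0.16 in Control.

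In the SAGA complex, 0 of the 6 genes of the USP22 module passed limma in Ring1b_KD (2 at an unadjusted p under 0.05), while other SAGA subunits had 2 of 16 higher, Kat2b (0.56) and Supt20 (0.35), and 2 lower, Sgf29 (-0.54) and Sf3b3 (-0.25). Other histone deubiquitinases had 2 of 15 lower, Usp12 (-0.46) and Usp7 (-0.32). H2B ligases and the PAF complex had 1 of 10 lower, Paf1 (-0.50), and H2A ubiquitin readers 2 of 5, Dnajc2 (-0.55) and Aebp2 (-0.34). The median log2 difference was -0.15 over the PRC1 ligases, -0.24 over the other H2A ligases, -0.12 over PR-DUB partners, 0.10 over the USP22 module, -0.03 over other SAGA subunits, -0.03 over other deubiquitinases, -0.04 over H2B ligases and -0.34 over readers, against 0.01 over all genes. Over the other alternatives with all arrays kept, scaling among them, PRC1 ligases had 2 to 4 calls and other H2A ligases 1 to 3. PR-DUB partners had 1 to 3 there, the USP22 module 0 to 1 and other SAGA subunits 2 to 4. Other deubiquitinases had 2 to 3, H2B ligases 1 to 5 and readers 2 to 4. Leaving out 1 array, the PRC1 ligases had 2 to 4 calls and the other H2A ligases 1, or 2 without Ring1b_KD array 2. At the lowest, PR-DUB partners had 0 without Control array 1, 2 or 3, other SAGA subunits 1 without Control array 3, H2B ligases 0 without Control array 2 or 3, readers 1 without any 1 Control array or Ring1b_KD array 1, and other deubiquitinases 1 without any 1 Control array, Ring1b_KD array 1 or 2 or CBFb_KD array 3. Of the 4 listed ubiquitin genes 0 were measured, as none had a probe set assigned to its symbol alone.

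In CBFb_KD, where 12.8% of genes were called, 6.62% higher and 6.19% lower, other histone deubiquitinases had 3 of 15 lower and none higher, namely Usp46 (-0.55, limma adjusted p = 0.00272), Usp11 (-0.51) and Usp10 (-0.51). The H2A readers had Jarid2, a PRC2 subunit that binds ubiquitinated H2A, higher (0.69) and Dnajc2 (-0.61) and Aebp2 (-0.26) lower of 5. Of 7 H2A ligases outside PRC1, Brca1 (-0.57) and Trim37 (-0.34) fell. Other SAGA subunits had Tada2b (0.43) and Kat2b (0.41) higher and Sf3b3 (-0.33) lower of 16, and the USP22 module had Eny2 (-0.29) lower of 6. PR-DUB partners had Mbd6 higher of 8, close to the threshold (0.31, limma adjusted p = 0.0493). That list had 0 higher and 1 lower without Ring1b_KD array 3, and 1 higher and 1 lower without Ring1b_KD array 1. Limma called 0 of 8 PRC1 ligases (1 at an unadjusted p under 0.05) and 0 of 10 H2B ligases and PAF subunits (3 at an unadjusted p under 0.05). With the replicate number as a block, 1 higher and 1 lower of the PR-DUB partners and 1 lower of the PRC1 ligases passed. The median log2 difference was -0.11 over other deubiquitinases, -0.05 over readers, -0.23 over other H2A ligases, -0.08 over other SAGA subunits, 0.09 over the USP22 module, -0.09 over PR-DUB partners, -0.04 over PRC1 ligases and -0.07 over H2B ligases, against -0.01 over all genes. Leaving out 1 array, readers had 2 to 3 calls. Other deubiquitinases had 1 without CBFb_KD array 3 and 5 without CBFb_KD array 1, other H2A ligases 0 without CBFb_KD array 2 or 3 or Control array 2 or 3, other SAGA subunits 1 without Control array 1 or 3, and the USP22 module and PR-DUB partners 0 without CBFb_KD array 2 or 3 or any 1 Control array.

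Between the knockdowns 16.5% of all genes were called, 8.92% higher and 7.54% lower in CBFb_KD than in Ring1b_KD. Of the 8 PRC1 ligases 2 were higher in CBFb_KD and 0 lower, Rnf2, the target in Ring1b_KD, by 1.56 and Bmi1 by 0.91 (limma adjusted p = 2.05e-05).

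**Figure D5:**
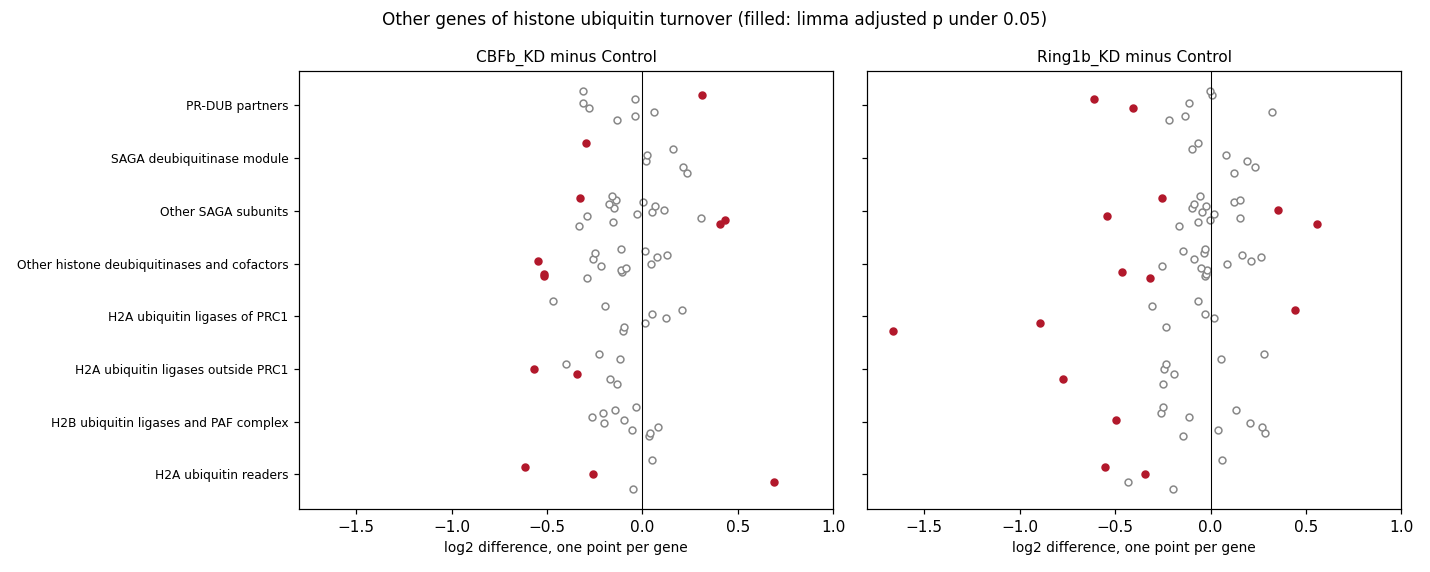
Log2 differences (horizontal axes) of the genes of 8 lists of histone ubiquitin turnover, 1 point per gene, for CBFb_KD minus Control and Ring1b_KD minus Control, filled where the limma adjusted p was under 0.05. The point farthest to the left, at -1.67 in Ring1b_KD, is the targeted Rnf2.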

How the data were processed

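The authors' deposited table gives log2 signals of 45101 probe sets on 9 one-colour arrays, from 3.23 to 15.4, a scale judged from the values. Per the labels' protocols, RNA was primed with oligo-dT and labelled with biotin by in vitro transcription. The sources used here name neither the software nor the normalization behind the table. The 64 control probe sets were left out, and the values were quantile normalized with limma 3.58.1 (R 4.3.3). Group means were fitted to all 9 arrays with lmFit and eBayes(trend = TRUE), prior degrees of freedom 6.186, and two-sided p-values were adjusted over 45037 probe sets, with a threshold of 0.05. The code was tested on simulated data. The platform annotation gave 34945 probe sets 1 symbol, 932 several and 9160 none. Members were matched by symbol alone, and Usp16 is also an old synonym of Usp21. For gene lists, each gene took its brightest probe set. Named were all member probe sets, the targeted genes and the 3 profiles most like a member that passed the F test. In each knockdown against Control, up to 4 called genes per list were named, by smallest adjusted p. Between the knockdowns only some of the called list genes were named. Same-numbered arrays deviated together in CBFb_KD and Control (r of 0.121 to 0.281 in all 3 pairs), but not in every pair with Ring1b_KD. The differently numbered CBFb_KD array 1 and Control array 3 reached 0.126 as well. The labels do not say what the number marks, and the main fit did not use it. The members and lists were chosen with earlier results of these data known. Alternatives covered scaling, variance, dim probe sets, probe sets per gene, the replicate number and each array left out. The number of arrays limits the precision, and detection calls were not used here.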

Additional observations from a re-analysis of the deposited data

Results flagged for a closer look

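Under the test of the difference between the knockdowns, 4 member probe sets differed, all lower in CBFb_KD than in Ring1b_KD. The log2 differences were -0.86 for Asxl2 1453295_at, -0.52 for Asxl2 1439063_at, -0.50 for Asxl2 1444754_at and -0.34 for Asxl1 1435077_at. As deposited and after median centring, the Asxl1 probe set did not pass (limma adjusted p = 0.0703 and 0.276) and Asxl2 1460597_at passed as higher in CBFb_KD (limma adjusted p = 0.0461 and 0.0203). Groups of 3 arrays are too small for the check on single outlying arrays, and the table held no columns outside the comparisons.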

How the results depend on the processing

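Over 15 to 18 alternatives for each member probe set and comparison, no called value changed sign, 24 values lost a call, 25 gained one and 1091 stayed on the same side of the threshold. These counts enter the mean over a gene's probe sets under its brightest probe set. In Ring1b_KD against Control, that mean gained a call for Usp3 (0.36, limma adjusted p = 0.0191) and lost one for Asxl2 (0.22, limma adjusted p = 0.0586). Leaving out each array in turn, the called member probe sets numbered 0 to 2 in CBFb_KD against Control, 3 to 7 in Ring1b_KD against Control, 4 to 5 between the knockdowns and 5 to 8 by the F test, and those of all probe sets 2374 to 4740, 1684 to 4328 and 3974 to 6123 in the 3 comparisons. In CBFb_KD against Control, 0 members were called after median centring and 2 without probe sets dimmer than the median. With 1 probe set per gene, where 8 members and 18193 genes were tested, the members called were 0 in CBFb_KD against Control, 1 in Ring1b_KD against Control, 2 between the knockdowns and 1 by the F test, and the calls over all genes were 2792, 2227 and 3532. Averaging all probe sets of each gene, the members called were 0, 1, 2 and 2 in the same order, and all genes 2578, 1780 and 3073. These settings test fewer features by construction. Same-numbered arrays correlated between -0.145 and 0.281 in their deviations from group means, with 4 of 9 pairs over 0.1. Differently numbered arrays of separate groups ran from -0.267 to 0.148, with 3 of 18 pairs over 0.1. All 3 pairs of CBFb_KD with Control were over 0.1 (0.121, 0.281 and 0.137), and not all of those with Ring1b_KD. The main fit did not pair arrays by number in any comparison. A replicate block, fitted to all 9 arrays, changed no member call in CBFb_KD against Control. With the number as a replicate block, 1, 7 and 6 member probe sets were called in the 3 comparisons, and 5000, 4333 and 6675 of all probe sets. Under the replicate block, Usp3 1425022_at passed in Ring1b_KD against Control (0.45, limma adjusted p = 0.038), and Usp21 1454034_a_at (-0.28, limma adjusted p = 0.0328) and Asxl2 1460597_at (0.30, limma adjusted p = 0.0382) passed between the knockdowns. The scaling moved the median of all probe sets by under 0.1 (log2), from 0.0422 as deposited to -0.0442 after median centring in Ring1b_KD against Control. Bright members moved further there. Between quantile normalization and median centring, Bap1 1426354_at went from 0.00 to -0.19 and Usp22 1437151_at from -0.18 to -0.37. The dim Asxl2 1444754_at stayed at 0.45. Array signal close to background limits what the 4 member probe sets dimmer than the median probe set can show.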

Other observations

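Between the knockdowns, beyond the PRC1 ligases, other genes of histone ubiquitin turnover differed in both directions. Jarid2, a PRC2 subunit, averaged 10.96 ± 0.01 in CBFb_KD and 9.83 ± 0.30 in Ring1b_KD (SD, n = 3 each), a log2 difference of 1.13 (limma adjusted p = 0.000165). Rnf168 was higher by 0.60 (limma adjusted p = 0.000554) and Usp12 by 0.36 (limma adjusted p = 0.0126) in CBFb_KD than in Ring1b_KD. Usp46, a paralog of Usp12, averaged 8.66 ± 0.12 in CBFb_KD and 9.42 ± 0.13 in Ring1b_KD (-0.76, limma adjusted p = 0.000243). By list, 2 higher and 1 lower of 8 PR-DUB partners, 1 and 0 of 6 genes of the USP22 module, 1 and 1 of 16 other SAGA subunits, 1 and 3 of 15 other deubiquitinases, 1 and 1 of 7 other H2A ligases, 1 and 2 of 10 H2B ligases and PAF subunits, and 1 and 0 of 5 readers passed. Leaving out 1 array, PR-DUB partners had 0 calls without CBFb_KD array 2 or 3 or Ring1b_KD array 3, other deubiquitinases 2 without CBFb_KD array 3, and H2B ligases 1 without Ring1b_KD array 1. The USP22 module had 0 calls without CBFb_KD array 3 or Ring1b_KD array 1 and 2 without CBFb_KD array 1, and other SAGA subunits had 1 in each case except without Ring1b_KD array 1 or 2.

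Of the markers of other lineages, limma called 0 of 7 neutrophil, 0 of 6 monocyte and macrophage, 0 of 6 T and B cell and 0 of 4 fibroblast genes in either knockdown against Control. At an unadjusted p under 0.05 the counts were 0, 1, 0 and 1 in CBFb_KD and 0, 3, 1 and 0 in Ring1b_KD. Of 7 mast cell genes 0 were higher and 1 lower in CBFb_KD, and 1 higher and 1 lower in Ring1b_KD, with list means of 7.74 to 7.86 in CBFb_KD, 7.82 to 8.24 in Ring1b_KD and 7.71 to 8.25 in Control (log2).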
